A study of Mus musculus with 12 samples.

Results

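The neurotrophins and their receptors were followed in the mouse striatum as the 6 genes Bdnf, Ntf3, Ntrk2, Ntrk3, Ngfr and Sort1, taken by their gene symbols from 51912 genes in the deposited tables. All 6 were found, and all 6 passed the filter on low counts that left 23453 genes for testing. Total RNA was sequenced from 12 striatal libraries of 4 groups with 3 libraries each. The groups were R6/2 mice given a virus with a short hairpin RNA (shRNA) against TRAX (R6/2-T), R6/2 mice given a control shRNA virus (R6/2-C), wild-type mice given the TRAX shRNA (WT-T) and wild-type mice given the control shRNA (WT-C). R6/2 is a model of Huntington's disease in which the first exon of human huntingtin, with a lengthened CAG repeat, is driven by the human huntingtin promoter; the line was B6CBA-Tg(HDexon1)62Gpb/3J. Wild-type mice were of the B6CBAFI/J strain, which the R6/2 line was mated with and which the labels give for both genotypes. All 4 groups had an adeno-associated virus injected into the striatum of both hemispheres at 5 weeks of age and were sampled at 10.5 weeks, so that no group was free of surgery or virus. Neither the promoter of the hairpin nor the cells that the virus reached are stated in the labels.

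Neurotrophins are secreted growth factors made as precursors, the proneurotrophins, which proteases cut to the mature form. Mature brain-derived neurotrophic factor (BDNF, from Bdnf) binds the receptor kinase TrkB (from Ntrk2), and neurotrophin-3 (from Ntf3) binds TrkC (from Ntrk3). Proneurotrophins bind the p75 neurotrophin receptor (from Ngfr) together with sortilin (from Sort1), which also sorts the precursors inside the cell. The striatum is known to receive most of its BDNF as protein carried down the axons of cortical neurons, while TrkB is made by striatal neurons and, in a truncated form, by astrocytes.

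Promoters in RefSeq, GRCm38.p6, matched 4 of the 6 genes, and 3 of these 300-base windows are shown because they belong to a ligand, Bdnf, and to 2 receptors, Ngfr and Ntrk2, that were called lower in R6/2. Each runs from 250 bases before to 50 bases after an annotated start. Bdnf has 7 such windows in the table, and the one shown, chr2:109692186-109692485 on the plus strand, is the only one of them with a match to any motif searched. The Ngfr window is chr11:95587649-95587948 on the minus strand, and the Ntrk2 window is chr13:58806319-58806618 on the plus strand. Capitals mark the core of the cAMP response element, TGACG, read on the minus strand.
Bdnf: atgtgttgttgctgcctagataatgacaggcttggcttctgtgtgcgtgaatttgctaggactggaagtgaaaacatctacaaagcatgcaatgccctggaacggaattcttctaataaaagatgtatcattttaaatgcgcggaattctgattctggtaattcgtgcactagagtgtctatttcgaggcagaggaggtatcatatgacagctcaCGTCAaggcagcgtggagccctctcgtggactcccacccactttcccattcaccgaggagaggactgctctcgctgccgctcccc
Ngfr: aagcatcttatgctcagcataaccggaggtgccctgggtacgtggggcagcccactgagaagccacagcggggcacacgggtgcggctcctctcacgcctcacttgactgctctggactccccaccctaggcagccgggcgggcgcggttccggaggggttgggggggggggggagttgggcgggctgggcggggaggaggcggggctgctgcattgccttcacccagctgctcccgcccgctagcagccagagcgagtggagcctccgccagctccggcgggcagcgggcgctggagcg
Ntrk2: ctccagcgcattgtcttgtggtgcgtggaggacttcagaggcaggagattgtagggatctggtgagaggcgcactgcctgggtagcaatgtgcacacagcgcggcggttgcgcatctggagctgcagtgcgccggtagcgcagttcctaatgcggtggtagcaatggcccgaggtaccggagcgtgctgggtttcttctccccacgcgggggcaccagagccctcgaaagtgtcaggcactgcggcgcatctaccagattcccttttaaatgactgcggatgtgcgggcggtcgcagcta
The core starts 35 bases before the start in the Bdnf window, and 20.8% of the 32851 promoter windows in the table hold it on either strand. The full cAMP response element TGACGTCA, held by 1.79% of windows, the EGR site GCGNGGGCG, held by 5.55%, and the repressor element parts TTCAGCACC and GGACAGCGC, held by 0.371% and 0.405%, had no match in any window of the 4 genes. The E-box CACGTG, held by 7.15% of windows, was found in 1 of the 2 Ntf3 windows. The core lies within the full cAMP response element, so a full match would also count as a core match. A match is a description of letters, and binding was not measured here. Of the windows shown, that of Ngfr was 71.7% G and C, that of Ntrk2 61.3% and that of Bdnf 48.7%.

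The libraries held 32206228 to 57308862 fragments, and mitochondrial genes took 8.03% to 11.2% of the counts. Tsnax, which encodes TRAX, was 16.7, 15.2 and 17.7 FPKM (fragments scaled by transcript length and library depth) in R6/2-T, against 75.4, 64.0 and 76.0 FPKM in R6/2-C. It was 13.0, 10.3 and 11.7 FPKM in WT-T, against 55.6, 56.6 and 64.7 FPKM in WT-C, so each library lay on the side its label gives. Summed over 12 markers of medium spiny neurons, the principal striatal cell, the level was 1190 to 1263 FPKM in R6/2-T, 1636 to 1817 in R6/2-C, 2924 to 3441 in WT-T and 2901 to 3444 in WT-C, and the defining markers were detected in every library. The second library of R6/2-C stood apart in 2 marker lists of other tissues. Its 7 choroid plexus markers summed to 1236 FPKM, against 79.7 and 114 FPKM in the other R6/2-C libraries, and its 9 meningeal fibroblast markers to 65.6 FPKM, against 18.6 and 20.5. Choroid plexus sums were also high in R6/2-T, from 653 to 1195 FPKM, and ranged from 94.5 to 808 in WT-T and from 90.8 to 223 in WT-C.

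The receptors were far more abundant in the striatum than the ligands. On the FPKM scale, which allows for gene length, the mean level over all 12 libraries was 84.3 for Ntrk2, 57.3 for Sort1, 17.2 for Ntrk3, 2.01 for Ngfr, 0.275 for Bdnf and 0.0479 for Ntf3. Of 21983 genes with an FPKM of at least 0.1 in 3 or more libraries, 97.3% lay below Ntrk2, 95.4% below Sort1, 80.5% below Ntrk3 and 39.98% below Ngfr, against 16.9% below Bdnf. Ntrk2 lay above Sort1 and Sort1 above Ntrk3 in every library. The tables give 1 level per gene, so the full-length and truncated forms of TrkB and of TrkC, which have and lack the kinase, were measured together.

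**Figure D1:**
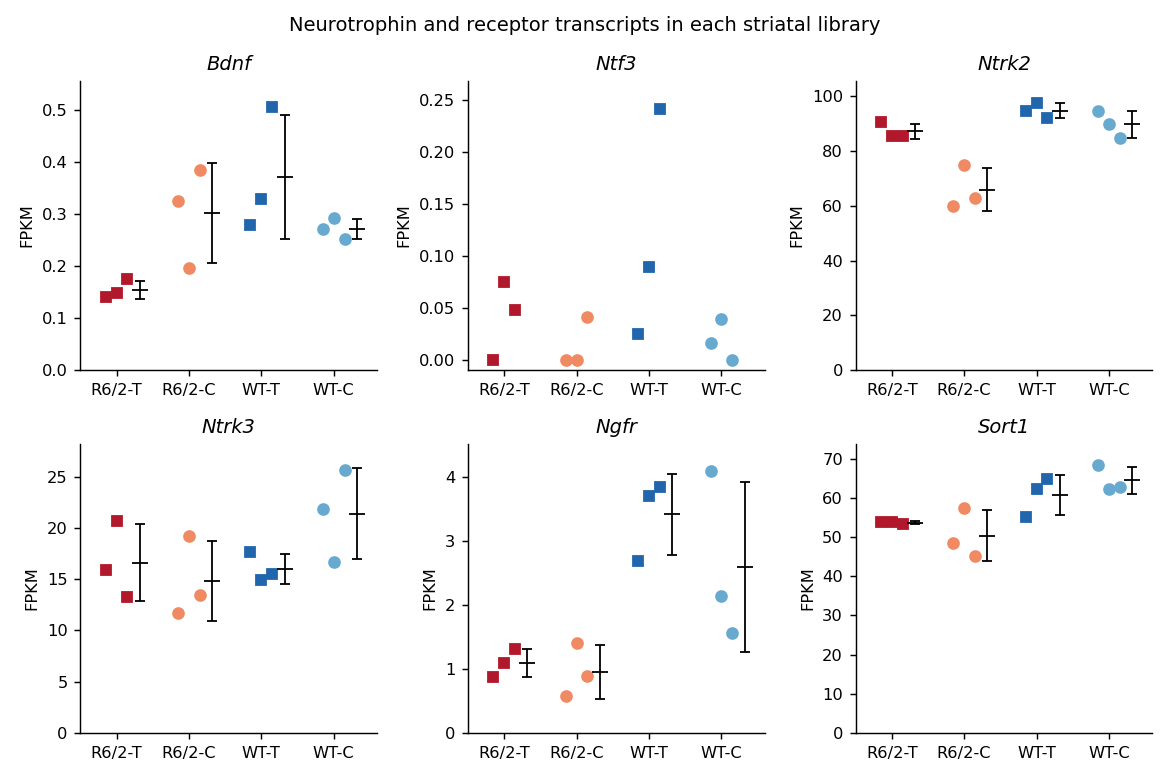
FPKM of the 6 genes in each library (points; squares for the TRAX shRNA, circles for the control virus), with the mean and SD of each group of 3 as black bars, which are left out for Ntf3 because 4 libraries list it as undetected. All 3 R6/2-T libraries have the lowest Bdnf values, 0.142 to 0.175 FPKM, and the 6 R6/2 libraries lie below the 6 WT libraries for Ngfr.

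Among the ligands, Bdnf (ENSMUSG00000048482, GRCm38 chromosome 2, 109674700 to 109727007, plus strand) was low in all groups and lowest in R6/2-T. Its level was 0.142, 0.148 and 0.175 FPKM in R6/2-T and 0.325, 0.197 and 0.385 FPKM in R6/2-C. In WT-T it was 0.279, 0.329 and 0.506 FPKM, and in WT-C 0.271, 0.292 and 0.252 FPKM. The group means were 0.155 ± 0.0176 FPKM in R6/2-T, 0.302 ± 0.0962 in R6/2-C, 0.371 ± 0.119 in WT-T and 0.272 ± 0.0198 in WT-C (SD, n = 3 each). The R6/2-T libraries overlapped no other group, and the other 3 groups overlapped one another. Between 23 and 119 fragments per library stood behind these values, which limits the precision of each. An antisense gene model, Gm45346, shares 896 of the 6217 exon bases of Bdnf and was listed as undetected in all 12 libraries.

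Bdnf fell in R6/2-T relative to WT-T, to 41.1% of the WT-T level (log2 change in counts −1.28, SE 0.30, edgeR adjusted p = 0.0121). With the control virus the same genotype contrast had a log2 change of 0.07 (95% interval −0.58 to 0.72, edgeR adjusted p = 0.909). Between R6/2-T and R6/2-C the log2 change was −0.90 (95% interval −1.56 to −0.24), which missed the threshold (edgeR adjusted p = 0.152), and between WT-T and WT-C it was 0.46 (95% interval −0.19 to 1.10, edgeR adjusted p = 0.901). The difference between the shRNA changes of the genotypes, the interaction, was −1.35 on the log2 scale (95% interval −2.28 to −0.43) and also missed the threshold (edgeR adjusted p = 0.353). Over both viruses Bdnf was 0.228 ± 0.102 FPKM in R6/2 and 0.321 ± 0.0939 FPKM in WT (SD, n = 6 each) with overlapping libraries, and it was called lower in R6/2 (log2 −0.61, SE 0.21, edgeR adjusted p = 0.0484), which held in 2 of 12 fits that left out 1 library. That pooled call averages a genotype change seen with the TRAX shRNA and one close to 0 with the control virus. Without the first R6/2-T library the R6/2-T against WT-T change was −1.22 and was no longer called (edgeR adjusted p = 0.0538), and without the third WT-T library it was −0.95 (adjusted p = 0.0378).

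Markers of cortical excitatory neurons, which make Bdnf, were present at low levels in these striatal libraries. The 10 markers summed to 21.2 to 24.8 FPKM in R6/2-T, 26.0 to 34.0 in R6/2-C, 24.1 to 38.4 in WT-T and 22.6 to 34.7 in WT-C, and none of the 10 was undetected throughout. The highest sum, 38.4 FPKM, was in the WT-T library with the highest Bdnf, and the R6/2-T libraries with the lowest Bdnf included the lowest sum. WT-C 2 and WT-C 3, with sums of 24.1 and 22.6 FPKM inside the R6/2-T range, had Bdnf of 0.292 and 0.252 FPKM. WT-T 1 and WT-T 2, with sums of 24.1 and 24.6 FPKM, had Bdnf of 0.279 and 0.329 FPKM. The vesicular glutamate transporter Slc17a7, a defining marker, was 2.14, 1.02 and 2.99 FPKM in R6/2-T, 5.51, 2.50 and 9.26 in R6/2-C, 3.10, 3.52 and 11.5 in WT-T and 8.09, 4.03 and 4.11 in WT-C. Of the 10 markers, edgeR called 1 lower in R6/2-T against WT-T, beside 11.1% of all genes. It called none in R6/2-T against R6/2-C, beside 0.0682% of all genes, with 3 positive and 7 negative changes. The authors' deposited comparison of these groups lists Neurod2, Neurod6 and Tbr1 of the 10 as lower in R6/2-T. Their log2 ratios there are −1.80, −1.38 and −1.19, with q-values of 0.0093, 0.0452 and 0.169. Nrn1, a large part of the sum, was 9.45, 8.34 and 10.4 FPKM in R6/2-T and 9.57, 14.7 and 10.9 in R6/2-C. The part of cortical neuron RNA in the Bdnf result was not tested. In bulk RNA, fewer cells of a type and less RNA per cell cannot be told apart.

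**Figure D2:**
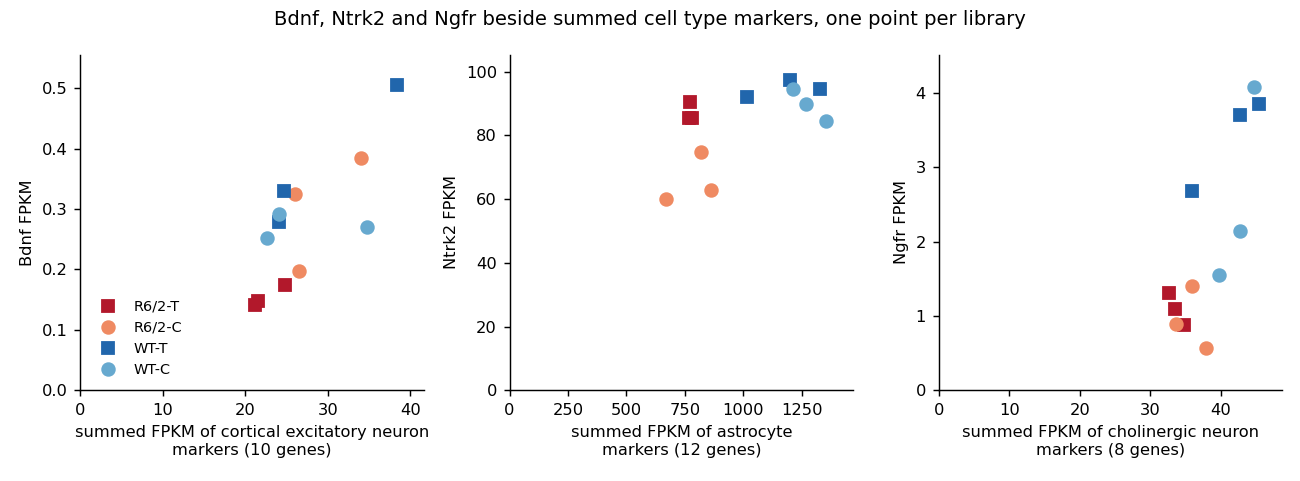
Each point is 1 library: FPKM of Bdnf, Ntrk2 or Ngfr (vertical axes) against the summed FPKM of cortical excitatory neuron, astrocyte or cholinergic neuron markers (horizontal axes). In the Bdnf panel R6/2-T libraries have the lowest Bdnf, at cortical sums of 21.2 to 24.8. These sums overlap those of WT-T and WT-C and lie below those of R6/2-C, 26.0 to 34.0. In the Ntrk2 panel R6/2-T libraries lie above R6/2-C at astrocyte sums of 768 to 780, within the R6/2-C range of 670 to 861.

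Ntf3 (ENSMUSG00000049107, chromosome 6, 126101412 to 126166910, minus strand) was at the limit of detection. The files list 0.0001, which marks an undetected gene, 0.0745 and 0.0478 FPKM in R6/2-T, and 0.0001, 0.0001 and 0.0416 FPKM in R6/2-C. They list 0.0251, 0.0895 and 0.241 FPKM in WT-T and 0.0159, 0.0391 and 0.0001 FPKM in WT-C. The highest value, in the third WT-T library, rests on 21 fragments and the others on 0 to 7. No comparison called Ntf3, and its intervals are too wide to exclude large changes either way: the log2 interval for R6/2-C against WT-C ran from −4.35 to 3.34 (edgeR adjusted p = 0.889).

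Among the Trk receptors, Ntrk2 (ENSMUSG00000055254, chromosome 13, 58806596 to 59133970, plus strand) was lower in R6/2-C than in every other group. Its level was 90.4, 85.5 and 85.3 FPKM in R6/2-T and 60.0, 74.8 and 62.9 FPKM in R6/2-C. It was 94.5, 97.5 and 92.0 FPKM in WT-T and 94.5, 90.0 and 84.6 FPKM in WT-C. The 3 R6/2-C libraries lay below all 9 others, whose groups overlapped except that R6/2-T lay below WT-T in FPKM. Ntrk2 fell in R6/2-C to 71.5% of the WT-C level (log2 change in counts −0.48, SE 0.11, edgeR adjusted p = 0.0232). In R6/2-T against WT-T the log2 change was −0.14 (95% interval −0.38 to 0.10, edgeR adjusted p = 0.395). Over both viruses Ntrk2 was called lower in R6/2 (log2 −0.31, SE 0.08, edgeR adjusted p = 0.0117), and it kept this call in 12 of 12 fits that left out 1 library. The call with the control virus was lost without R6/2-C 1, R6/2-C 3, WT-C 1 or WT-C 2, where the change was −0.43, −0.43, −0.43 and −0.47 (edgeR adjusted p = 0.0871, 0.0876, 0.0812 and 0.0678).

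For the TRAX shRNA in R6/2 the log2 change of Ntrk2 was 0.45 (95% interval 0.21 to 0.69), with all 3 R6/2-T libraries above all 3 R6/2-C libraries, and it missed the threshold (edgeR adjusted p = 0.0885). DESeq2, a second count model, called it (log2 0.46, adjusted p = 0.00514), among 1684 of 23453 genes that it called, against 16 by edgeR. With edgeR it was called when the second R6/2-C library, the one high in choroid plexus markers, was left out (log2 0.57, adjusted p = 0.0156). The R6/2-C libraries that remained had choroid plexus sums of 79.7 and 114 FPKM, against 653 to 1195 in R6/2-T. Their values of the gene-length trend described below were −0.20 and −0.17, against 0.18 to 0.23 in R6/2-T. So this fit compares groups that differ in both. In WT the shRNA change was 0.11 (95% interval −0.13 to 0.35, edgeR adjusted p = 0.950). The interaction was 0.34 on the log2 scale (95% interval 0.00 to 0.69), which was not called (edgeR adjusted p = 0.422).

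Astrocyte markers moved with genotype beside Ntrk2, as did markers of several other cell types. The 12 astrocyte markers summed to 768 to 780 FPKM in R6/2-T, 670 to 861 in R6/2-C, 1015 to 1329 in WT-T and 1213 to 1352 in WT-C. By edgeR, 8 of 12 were called lower in R6/2-C against WT-C and 7 in R6/2-T against WT-T, beside 4.22% and 11.1% of all genes. None was called in either direction in R6/2-T against R6/2-C, beside 0.0682% of all genes. In R6/2-C against WT-C, 7 of 12 medium spiny neuron, 5 of 10 oligodendrocyte and 4 of 8 endothelial markers were also called lower. No microglia, cortical excitatory neuron or choroid plexus marker was called there. The glutamate transporter Slc1a2, an astrocyte marker, was 182, 167 and 187 FPKM in R6/2-T and 88.8, 138 and 94.6 FPKM in R6/2-C. It was 165, 213 and 237 FPKM in WT-T and 262, 182 and 182 FPKM in WT-C, so that the R6/2-C libraries were the lowest 3, as for Ntrk2. Slc1a2 had the largest positive change of the 12 in R6/2-T against R6/2-C (log2 0.77, not called), and the list had 7 positive and 5 negative changes, with a median log2 change of 0.09. Aqp4, the astrocytic water channel, was 18.8, 27.0 and 25.2 FPKM in R6/2-T and 18.6, 27.4 and 30.0 FPKM in R6/2-C, and Gja1, a gap junction gene, was 68.6 to 75.4 FPKM in R6/2-T and 54.3 to 74.2 FPKM in R6/2-C, both with overlapping groups. Gfap, an intermediate filament gene, lay the other way, at 59.3, 81.8 and 73.3 FPKM in R6/2-T and 89.2, 184 and 231 FPKM in R6/2-C. The part of astrocyte content in the Ntrk2 result was not tested.

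Ntrk3 (ENSMUSG00000059146, chromosome 7, 78175959 to 78738012, minus strand) gave different pictures on the count and FPKM scales. In CPM, which is counts adjusted for library size but not for length, it was 153, 151 and 150 in R6/2-T and 103, 134 and 106 in R6/2-C. It was 125, 161 and 179 CPM in WT-T and 167, 170 and 152 CPM in WT-C. The R6/2-C libraries lay below all WT-C and all R6/2-T libraries on this scale. Ntrk3 fell in R6/2-C to 70.0% of the WT-C level in counts (log2 −0.51, SE 0.13, edgeR adjusted p = 0.0385). Without any 1 of the 6 libraries other than R6/2-C 2 the change was −0.45 to −0.56 and was not called (edgeR adjusted p = 0.0706 to 0.131).

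In FPKM, Ntrk3 was 15.9, 20.7 and 13.2 in R6/2-T and 11.7, 19.2 and 13.5 in R6/2-C. It was 17.7, 14.9 and 15.5 FPKM in WT-T and 21.9, 16.7 and 25.6 FPKM in WT-C. Here R6/2-C overlapped WT-C and R6/2-T, and the fall in R6/2-C was not called by limma (log2 of FPKM plus 0.1 −0.54, adjusted p = 0.136). Ntrk3 has 20 annotated transcripts, the longest of 19703 bases. In counts the shRNA change of Ntrk3 was 0.40 in R6/2 (95% interval 0.11 to 0.70, edgeR adjusted p = 0.150) and −0.08 in WT (95% interval −0.37 to 0.22, edgeR adjusted p = 0.989), with an interaction of 0.48 (95% interval 0.06 to 0.90, edgeR adjusted p = 0.383). Over both viruses the genotype call was close to the threshold (log2 −0.27, SE 0.10, edgeR adjusted p = 0.0478), and it held in 2 of 12 fits that left out 1 library.

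Long genes as a class ran higher in R6/2-T than in R6/2-C, beside these long receptor transcripts. The median deviation of genes with a transcript of at least 3593 bases minus that of genes up to 1864 bases was 0.23, 0.21 and 0.18 on the log2 CPM scale in R6/2-T and −0.20, 0.03 and −0.17 in R6/2-C. It was −0.34, 0.03 and 0.06 in WT-T and 0.01, −0.05 and −0.20 in WT-C. With counts corrected for transcript length and GC content in each library, a correction added after the data were seen, the change in R6/2-T against R6/2-C was 0.17 for Ntrk2 (edgeR adjusted p = 0.380) and −0.23 for Ntrk3 (edgeR adjusted p = 0.370). In R6/2-C against WT-C the corrected change was −0.29 for Ntrk2, still called (edgeR adjusted p = 0.0348), and −0.21 for Ntrk3, no longer called (edgeR adjusted p = 0.221). In R6/2-T against WT-T the corrected Ntrk3 change was −0.39 and was called (edgeR adjusted p = 0.0230).

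**Figure D3:**
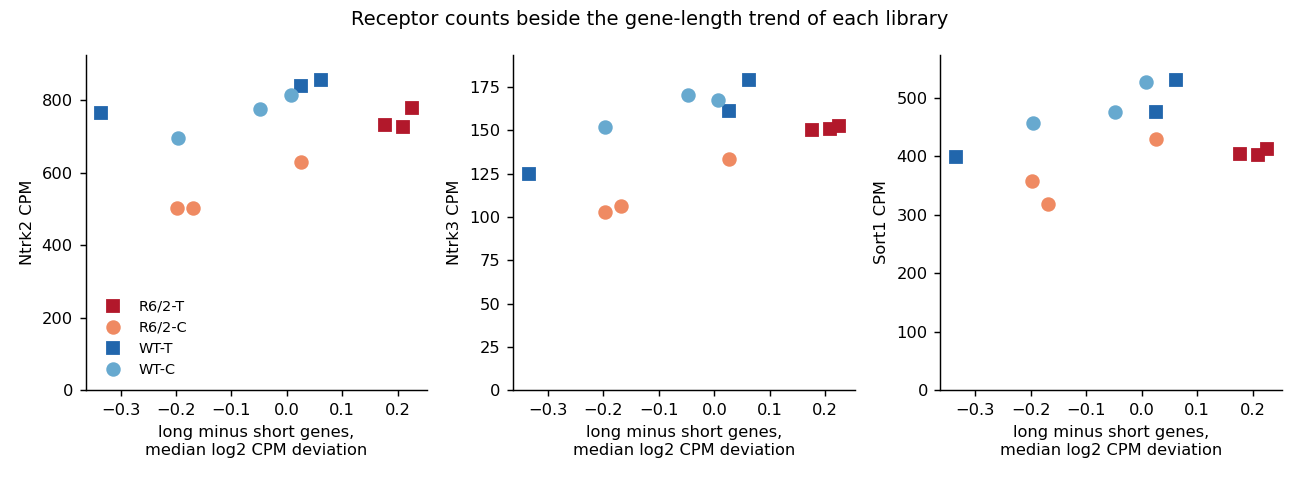
CPM of Ntrk2, Ntrk3 and Sort1 in each library (vertical axes) against the median log2 deviation of long minus short genes in that library (horizontal axes). The 3 R6/2-T libraries have the highest length values, 0.18 to 0.23, and the first and the third R6/2-C libraries combine values of −0.20 and −0.17 with the lowest counts of Ntrk2 and Ntrk3.

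The p75 receptor gene Ngfr (ENSMUSG00000000120, chromosome 11, 95568818 to 95587735, minus strand) had the largest fall in R6/2 among the 6 genes. Its level was 0.877, 1.10 and 1.31 FPKM in R6/2-T and 0.575, 1.40 and 0.886 FPKM in R6/2-C. It was 2.68, 3.71 and 3.85 FPKM in WT-T and 4.08, 2.14 and 1.55 FPKM in WT-C. All 6 R6/2 libraries lay below all 6 WT libraries, and the 2 viruses overlapped within each genotype. Between 116 and 807 fragments per library stood behind these values.

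Ngfr fell in R6/2-C to 35.4% of the WT-C level (log2 change in counts −1.50, SE 0.40, edgeR adjusted p = 0.0426) and in R6/2-T to 31.4% of the WT-T level (log2 −1.67, SE 0.40, edgeR adjusted p = 0.0140). Over both viruses its mean was 1.02 ± 0.307 FPKM in R6/2 and 3.00 ± 1.03 FPKM in WT (SD, n = 6 each; log2 in counts −1.59, SE 0.28, edgeR adjusted p = 0.00218). The 2 genotype changes did not differ by test (interaction −0.17, 95% interval −1.40 to 1.05, edgeR adjusted p = 0.937). Without WT-C 1 the R6/2-C against WT-C change was −0.99, and without R6/2-C 1, R6/2-C 3 or WT-C 2 it was −1.24, −1.42 and −1.62; none of these was called (edgeR adjusted p = 0.130, 0.130, 0.126 and 0.0781). Without R6/2-T 1 the R6/2-T against WT-T change was −1.54 and not called (edgeR adjusted p = 0.0644), while the call over both viruses held in 12 of 12 fits that left out 1 library. After the length and GC correction the R6/2-T against WT-T change was −1.22 and just missed the threshold (edgeR adjusted p = 0.0531). The shRNA change was 0.25 in R6/2 (95% interval −0.62 to 1.12, edgeR adjusted p = 0.769) and 0.42 in WT (95% interval −0.44 to 1.28, edgeR adjusted p = 0.935).

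The cholinergic neurons of the neighbouring basal forebrain are known for high p75. The 8 cholinergic markers summed to 32.7 to 34.8 FPKM in R6/2-T, 33.6 to 37.9 in R6/2-C, 35.9 to 45.4 in WT-T and 39.8 to 44.7 in WT-C. By edgeR, 3 were called lower and 1, Isl1, higher in R6/2-C against WT-C, where 4.22% of all genes were called lower and 4.87% higher. In R6/2-T against WT-T 3 were called lower, beside 11.1% of all genes. The acetylcholine-synthesising enzyme Chat, a defining marker, was 9.94, 10.9 and 10.2 FPKM in R6/2-T and 9.71, 11.1 and 8.06 in R6/2-C, against 13.4, 16.3 and 19.4 in WT-T and 15.1, 13.9 and 13.9 in WT-C. Slc18a3, another defining marker, was also lower in each R6/2 group than in its WT group. Slc5a7, a further one, was 4.23 to 5.06 FPKM in R6/2-T, within the WT-T range of 4.22 to 5.52. It was 5.45 to 5.88 in R6/2-C and 6.73 to 8.71 in WT-C. Isl1 lay the other way, at 8.31 to 11.2 FPKM in the R6/2 libraries and 5.91 to 8.22 in the WT libraries. The part of cholinergic cell content in the Ngfr result was not tested.

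Sort1 (ENSMUSG00000068747, chromosome 3, 108284082 to 108361511, plus strand) varied least, with a highest level 1.52 times the lowest. Its level was 53.9, 53.8 and 53.3 FPKM in R6/2-T and 48.4, 57.5 and 45.1 FPKM in R6/2-C. It was 55.1, 62.4 and 64.9 FPKM in WT-T and 68.4, 62.3 and 62.8 FPKM in WT-C. On the FPKM scale each R6/2 group lay below its WT group without overlap, and the pooled genotypes overlapped. Over both viruses Sort1 was called lower in R6/2, at 81.0% of the WT level in counts (log2 −0.30, SE 0.09, edgeR adjusted p = 0.0268), a call that held in 5 of 12 fits that left out 1 library. Within a virus it missed the threshold by edgeR, with a log2 change of −0.40 in R6/2-C against WT-C (95% interval −0.68 to −0.12, adjusted p = 0.0778) and −0.21 in R6/2-T against WT-T (95% interval −0.49 to 0.08, adjusted p = 0.275). In counts of recovered fragments the first of these was called (log2 −0.38, edgeR adjusted p = 0.0436). The shRNA change was 0.14 in R6/2 (95% interval −0.15 to 0.42, edgeR adjusted p = 0.590) and −0.06 in WT (95% interval −0.34 to 0.23, edgeR adjusted p = 0.997).

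**Figure D4:**
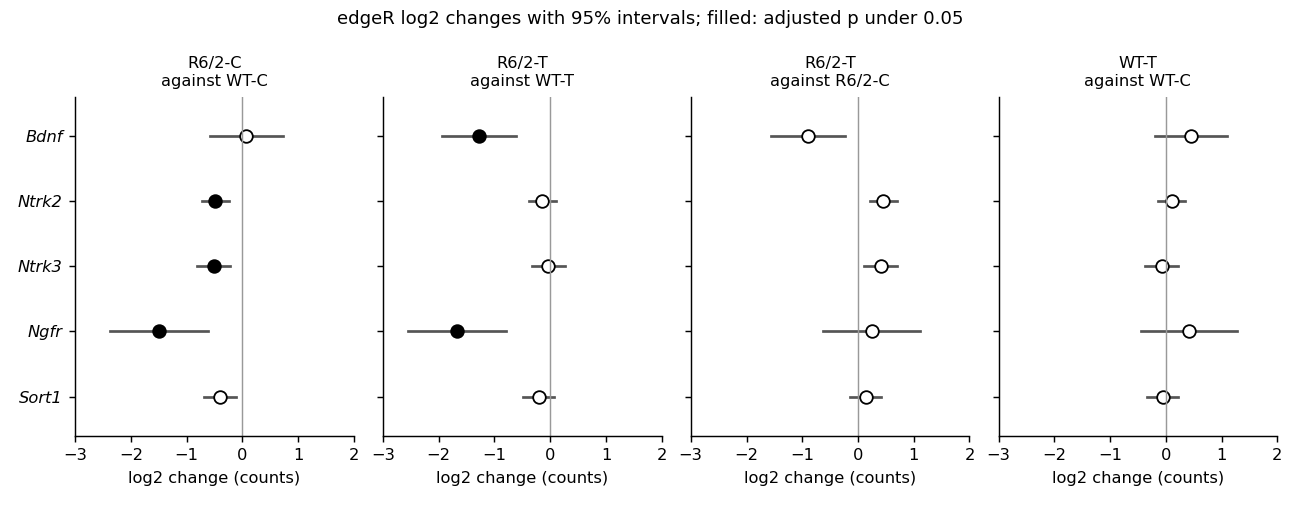
Log2 changes in counts with 95% intervals (lines) for 5 of the 6 genes in 4 comparisons; filled points have an edgeR adjusted p under 0.05, and Ntf3 is left out because its intervals are wider than the axis. With the control virus Ntrk2, Ntrk3 and Ngfr are filled and negative, with the TRAX shRNA Bdnf and Ngfr are, and none is filled in the shRNA comparisons.

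Set against all genes, the number of calls among the 6 differed between comparisons as follows. In R6/2-C against WT-C, 3 of 6 were called, all lower, where 9.09% of all genes tested were called, 4.87% as higher and 4.22% as lower. With the TRAX shRNA in both genotypes, 2 of 6 were called, both lower, where 22.6% of all genes were called, 11.5% as higher and 11.1% as lower. Over both viruses 5 of 6 were called lower, where 30.7% of all genes were called, 15.3% as higher and 15.4% as lower. The median log2 change of the 6 was −0.49, −0.74 and −0.46 in these comparisons, against −0.02, −0.05 and −0.04 over all genes tested. These medians include Ntf3, at the limit of detection, with −1.62 (SE 1.62) in R6/2-T against WT-T. The larger median there was not shared by all of the 6. Ntrk2, Ntrk3 and Sort1 had −0.14, −0.03 and −0.21 there, against −0.48, −0.51 and −0.40 with the control virus. Bdnf and Ngfr had −1.28 and −1.67, against 0.07 and −1.50. The first 2 comparisons share no library, and the pooled comparison uses the libraries of both.

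The TRAX shRNA gave no call among the 6 genes with edgeR. In R6/2-T against R6/2-C edgeR called 0.0682% of all genes, 0.0512% as higher and 0.0171% as lower. There 3 of the 6 had an unadjusted p under 0.05, as did 19.2% of all genes. DESeq2 called 1 of the 6, Ntrk2, among 1684 of 23453 genes that it called, and limma on FPKM called 0 of the 6. In WT-T against WT-C edgeR called 0.00426% of all genes, all as lower. There 0 of the 6 had an unadjusted p under 0.05, against 6.45% of all genes, and no tool called any of the 6. Over both genotypes edgeR called 0.217% of all genes, 0.102% as higher and 0.115% as lower. Of the 6, 1, Ntrk2, had an unadjusted p under 0.05, as did 14.4% of all genes. DESeq2 called Ntrk2 (log2 0.28, adjusted p = 0.0261), among 792 of 23453 genes that it called. For the interaction edgeR called 0.00426% of all genes. There 3 of the 6, Bdnf, Ntrk2 and Ntrk3, had an unadjusted p under 0.05 with no call by any tool, beside 11.7% of all genes with such a p.

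Other ligands and receptors of the system were also measured. Ntf5, for neurotrophin-4, was listed at 0.0001 to 0.159 FPKM, on 0 to 14 fragments. The authors' deposited table, which compares R6/2-T with R6/2-C, lists none of the 6 genes. It holds 626 genes and is named as neuron-enriched, differentially expressed mRNA. Absence from such a selected list does not show that a gene was unchanged.

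Sorcs2, a sortilin-family receptor that pairs with p75, was lower in R6/2. It was 9.97, 11.1 and 9.95 FPKM in R6/2-T and 11.3, 11.3 and 9.34 FPKM in R6/2-C, against 15.6, 23.3 and 24.5 FPKM in WT-T and 16.0, 18.1 and 17.3 FPKM in WT-C. The 6 R6/2 libraries lay below the 6 WT libraries, as for Ngfr, and it was called in R6/2-C against WT-C (log2 −0.74, SE 0.18, edgeR adjusted p = 0.0272) and in R6/2-T against WT-T (log2 −1.07, SE 0.18, edgeR adjusted p = 0.00206). Rtn4r, the Nogo receptor that signals with p75, was called lower in R6/2-T against WT-T (log2 −1.95, SE 0.51, edgeR adjusted p = 0.0182) and not in R6/2-C against WT-C (log2 −0.45, SE 0.49). The sortilin relatives Sorl1, Sorcs1 and Sorcs3, the p75 partner Lingo1 and the Trk scaffold Kidins220 were not called in any genotype comparison; their log2 changes over both viruses were −0.16, −0.03, −0.18, −0.15 and 0.34.

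**Figure D5:**
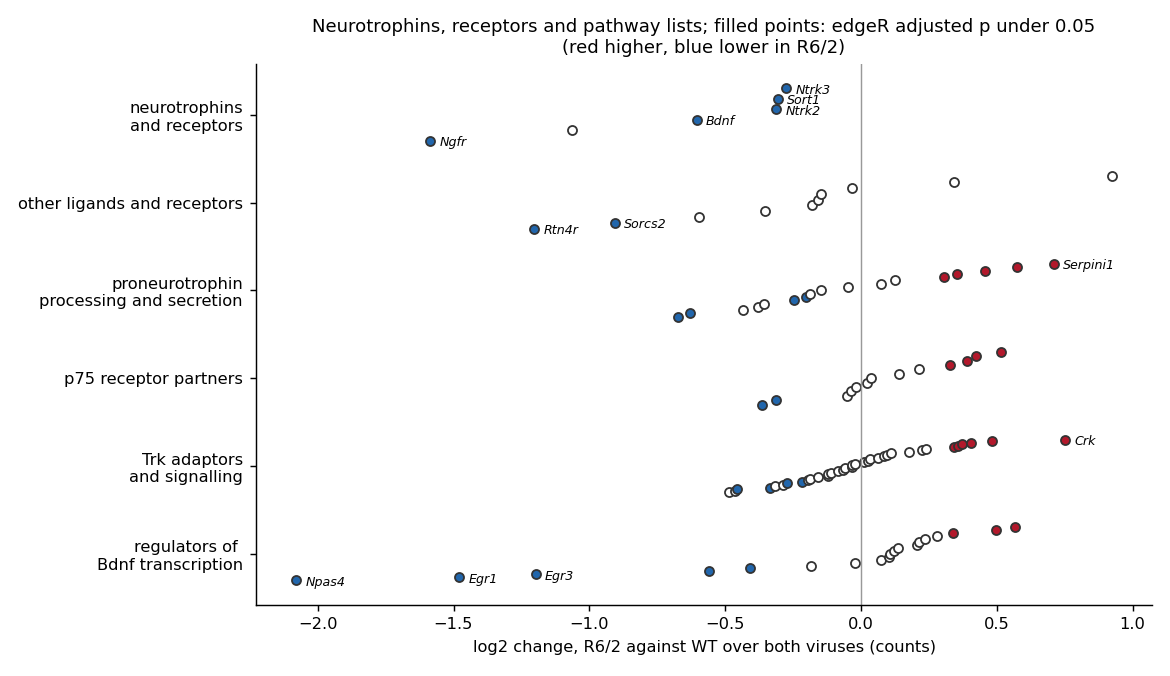
Log2 changes of R6/2 against WT over both viruses (horizontal axis) for the 6 neurotrophin and receptor genes and for 5 lists of related genes, one point per gene; filled points have an edgeR adjusted p under 0.05, red higher and blue lower in R6/2. The 5 filled points of the first row are all lower, and those of the processing, p75 partner and Trk adaptor lists fall on both sides of 0.

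Around the receptors, the related lists held calls in both directions in R6/2. Of 95 genes tested in the 5 lists, 5 were higher and 8 lower by test in R6/2-C against WT-C, which is 13.7% against 9.09% of all genes. With the TRAX shRNA 12 were called higher and 11 lower in R6/2, 24.2% against 22.6% of all genes. Over both viruses 18 were called higher and 17 lower, 36.8% against 30.7% of all genes. These shares are read as descriptions, since the lists were chosen with earlier results of these data known. In each of the 4 shRNA and interaction comparisons edgeR called 0 of the 95. An unadjusted p under 0.05 was found for 24 of the 95 in R6/2, 9 in WT, 14 over both genotypes and 16 for the interaction. The shares of all genes tested with such a p were 19.2%, 6.45%, 14.4% and 11.7%, so these counts are given as descriptions only. With recovered fragments edgeR called 4, 0, 1 and 0 of the 95.

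Genes that process and release proneurotrophins split over both viruses into 5 called higher and 4 lower of 17 tested, where 15.3% of all genes were called higher and 15.4% lower, with a median log2 change of −0.15. Serpini1, neuroserpin, which inhibits tissue plasminogen activator, rose (log2 0.71, SE 0.12, edgeR adjusted p = 0.00142), and Plat, tissue plasminogen activator itself, which starts the plasmin cascade that cuts proBDNF, fell (log2 −0.67, SE 0.12, edgeR adjusted p = 0.00235). The proprotein convertase Pcsk1 rose (log2 0.57, SE 0.10), as did Pcsk7 (log2 0.31, SE 0.08), while the convertase Pcsk5 fell (log2 −0.63, SE 0.15). With the control virus the calls were Pcsk1 (log2 0.59), Plat (log2 −0.65) and Hap1, which encodes huntingtin-associated protein and takes part in BDNF vesicle transport (log2 0.75). With the TRAX shRNA 4 of the 17 were called higher and 2 lower, beside 11.5% and 11.1% of all genes.

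Of 13 tested partners of the p75 receptor, 4 were called higher and 2 lower over both viruses, beside 15.3% and 15.4% of all genes, with a median log2 change of 0.04. Maged1, the p75 adaptor also called NRAGE, rose (log2 0.51, SE 0.11, edgeR adjusted p = 0.00458), as did Bex3, the p75-associated cell death executor (log2 0.33, SE 0.09, edgeR adjusted p = 0.0212). Mapk8, the kinase JNK1, rose (log2 0.42, SE 0.09), and so did the p75-binding ubiquitin ligase Traf6 (log2 0.39, SE 0.08). Adam17, the protease that sheds the p75 ectodomain, fell (log2 −0.37, SE 0.10, edgeR adjusted p = 0.0144), and the kinase Irak1 fell (log2 −0.31, SE 0.08). With the control virus Maged1 (log2 0.65) and Bex3 (log2 0.48) were called, and with the TRAX shRNA Mapk8 (log2 0.62), Traf6 (log2 0.57) and Irak1 (log2 −0.37).

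Of 36 Trk adaptors and signalling genes, 6 were called higher and 4 lower over both viruses, with a median log2 change of −0.03. These 10 are a smaller share than the 30.7% called over all genes, so the count says nothing particular to the list. The exchange factors Sos2 (log2 0.40, SE 0.08) and Sos1 (log2 0.48, SE 0.10), which activate Ras, the Trk docking protein Frs2 (log2 0.36, SE 0.07) and the TrkB-binding membrane protein Slitrk5 (log2 0.37, SE 0.08) rose. The Shc-family adaptor Shc4 fell (log2 −0.45, SE 0.10, edgeR adjusted p = 0.00614). With the control virus the calls were Slitrk5 (log2 0.43), Shc4 (log2 −0.59) and the docking protein Gab1 (log2 −0.38). With the TRAX shRNA Frs2, Sos1, Braf and Sos2 were called higher and Sh2b2 lower, an adaptor with a log2 change of −0.88.

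Of 19 regulators of Bdnf transcription, 3 were called higher and 5 lower over both viruses, where 15.3% of all genes were called higher and 15.4% lower. The share called higher was close to that over all genes, and the largest changes were in activity-induced factors. Npas4, an activity-induced factor that binds Bdnf promoters, was 2.06, 4.63 and 4.57 FPKM in R6/2-T and 4.93, 3.45 and 2.39 FPKM in R6/2-C, against 18.6, 18.6 and 14.3 FPKM in WT-T and 11.8, 17.3 and 11.3 FPKM in WT-C. It fell by 2.08 on the log2 scale over both viruses (SE 0.24, edgeR adjusted p = 0.000227), and Egr1 (log2 −1.48, SE 0.16), Egr3 (log2 −1.20, SE 0.12) and the repressor Bhlhe40 (log2 −0.56, SE 0.07) fell with it. Mef2a (log2 0.34) and Creb1 (log2 0.57), which encode transcriptional regulators that bind Bdnf promoters, were called higher. Npas4, Egr1, Egr3 and Bhlhe40 were called lower in both R6/2-C against WT-C and R6/2-T against WT-T, whereas Bdnf was called in the second of these, with an interaction that was not called. The repressor gene Rest, whose protein is known to bind huntingtin, had a log2 change of 0.21 (SE 0.20, not called, edgeR adjusted p = 0.472).

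The 6 genes were compared with all genes by their pattern over the 12 libraries, as Pearson's r of log2 CPM over 13357 or 13358 genes, given as a description since libraries share groups and depth. Bdnf was most like Cck, the gene for the peptide cholecystokinin (r 0.962), then R3hdm4 (0.947) and Tmem178 (0.915). Ntrk2 was most like the plexin gene Plxnb1 (r 0.957) and the astrocytic glutamate transporter Slc1a2 (0.955). Ntrk3 was most like Gli3 and Arrb1 (r 0.970 and 0.965), Ngfr most like Pex5l, Mrvi1 and Cyp26b1 (r 0.963, 0.950 and 0.935), and Sort1 most like Myt1l, Rgs7bp and Epas1 (r 0.978, 0.975 and 0.969). Ntf3, with few fragments, reached 0.887 with Zic4. The most opposite patterns were Nup205 for Bdnf (r −0.927), Parp1 for Ntf3 (−0.880), Mrpl28 for Ntrk2 (−0.962), Blvra for Ntrk3 (−0.950), Srp68 for Ngfr (−0.960) and Rbm3 for Sort1 (−0.956).

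Among the 6 themselves, the receptors varied together in counts and Bdnf apart from the Trk receptors. These counts were not corrected for the gene-length trend of the libraries, whose part in the joint variation was not tested. In FPKM, Ntrk3 of R6/2-C overlapped WT-C and R6/2-T, whereas Ntrk2 of R6/2-C lay below both. Over the 12 libraries r of log2 CPM was 0.90 between Ntrk2 and Ntrk3, 0.89 between Ntrk3 and Sort1, 0.84 between Ngfr and Sort1 and 0.82 between Ntrk2 and Sort1. Bdnf had an r of −0.03 with Ntrk2 and −0.01 with Ntrk3. Within R6/2-C the second library had the highest Ntrk2, Ntrk3, Ngfr and Sort1 of its group and the lowest Bdnf. That library is the one with the high choroid plexus and meningeal sums. It also differs in the long minus short gene deviation, at 0.03 against −0.20 and −0.17 in the other R6/2-C libraries. Without it the R6/2-C against WT-C changes were −0.60 for Ntrk2, −0.64 for Ntrk3, −1.91 for Ngfr and −0.53 for Sort1, all 4 called (edgeR adjusted p = 0.00874, 0.0183, 0.0233 and 0.0310), and 0.29 for Bdnf (adjusted p = 0.567). Those fits were not corrected for length, and which trait of the library matters was not tested.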

How the data were processed

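The submitters' processing notes name bcl2fastq 2.20, HISAT2 and the build GRCm38. The values tested are the estimated counts that StringTie gave, per the file headers. They are whole numbers, so rounding changed nothing, and the test planned for read counts was kept. They come to 4.00 to 4.12 per fragment, so they are not independent reads. Columns with Cuffdiff in their heading hold a deposited signal, fragments at a common scale. Division by the size of 1 fragment made 95.1% to 96.9% of values whole within 0.05, and these recovered fragments served as an alternative. The deposited FPKM list undetected genes at 0.0001. The authors' deposited table gives a log2 ratio, a p-value and a q-value for R6/2-T over R6/2-C in 626 genes, named as neuron-enriched and differentially expressed. A further 12 deposited columns of Pearson values were not used. The library kit keeps strand, but the strand setting of the counting is not stated.

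Genes were tested in R 4.3.3 with edgeR 4.0.16 (quasi-likelihood F test, robust, TMM scaling, default filter by group, two-sided), in a model of the 4 group means of 12 libraries, with Benjamini-Hochberg adjustment over 23453 genes and a threshold of 0.05. CPM use the TMM factors. Alternatives used DESeq2 1.42.0, limma 3.58.1 on log2(FPKM + 0.1) or log2(FPKM + 1), no filter, RLE scaling, a replicate block, 2 groups only, a length and GC correction (properties found for 23354 genes) and each library left out. In simulated counts for R6/2-C against WT-C with 200 of 18776 genes changed 2-fold, edgeR recovered 192 and made 7 false calls. DESeq2 recovered 192 and made 27. The simulation was built on recovered fragments, with the same dispersion for every gene and changes only in genes above a set mean level. It checks that the code runs as meant, and gives no rate of recovery for the StringTie counts or for genes as variable or as low as Bdnf, Ngfr or Ntf3. Whether libraries come from separate animals is not stated, and p-values cover the spread among these libraries, which may be technical. Of 18 pairs of libraries with the same replicate number, 7 had deviations correlated above 0.1, so the numbers were not taken to pair the libraries. The 6 genes and all lists were chosen with earlier results of these data known. Genes named are the 6, Tsnax, up to 5 called genes of each of 5 related lists by smallest p, all other ligands and receptors, the 3 most like and 1 least like gene of each of the 6 among genes whose mean log2 CPM reached 1, and defining markers; Rest and Creb1 were named after their values were seen. Some genes that this rule names are not reported here. Gene models are GENCODE M21.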

Additional observations from a re-analysis of the deposited data

How the results depend on the processing

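With 3 libraries a group, single libraries decided several calls, and the cause was not tested. In R6/2-C against WT-C the 3 calls of the 6 genes became 0 when only these 2 groups were fitted, 1 (Ntrk2) by limma on FPKM with a weak filter, and 0 to 4 when a library was left out (0 without R6/2-C 1, R6/2-C 3, WT-C 1 or WT-C 2), and 0 to 4 likewise in recovered fragments. In R6/2-T against WT-T the 2 calls stayed 2 in every alternative with all libraries, though the GC and length correction called Ntrk3 in place of Ngfr, and were 0 to 2 with a library left out (0 without R6/2-T 1) and 1 to 3 in recovered fragments. Over both viruses the 5 calls became 3 (Ntrk2, Ngfr and Sort1) with no expression filter and by limma with either pseudocount or the weak filter, and 2 to 5 with a library left out, Ntrk2 and Ngfr being called in all 12 of these fits (3 to 5 in recovered fragments). For R6/2-T against R6/2-C and for the shRNA over both genotypes DESeq2 made 1 call, Ntrk2, against 0; leaving out a library gave 0 to 1 in each (Ntrk2, without R6/2-C 2), and in recovered fragments 0 to 3 and 0 to 1. WT-T against WT-C and the interaction gave 0 throughout. With the replicate number as a block the calls were 1 in R6/2-C against WT-C (Ntrk2) and 3 over both viruses (Ntrk2, Ngfr and Sort1), and no other count moved. Changes of sign occurred in 40 alternative values of the 6 genes, all of them uncalled. Counts over all genes moved by more than 1.5 times in R6/2-C against WT-C, to 3471 by DESeq2, 3263 in recovered fragments, 3745 with the GC and length correction, 1199 with the replicate block and 454 with 2 groups, against 2131. In R6/2-T against R6/2-C, against 16, they were 1684 by DESeq2, 504 in recovered fragments, 84 and 54 by limma, 4 with the block, 7 with 2 groups and 3 with the GC and length correction. For the shRNA over both genotypes, against 51, they were 792, 166, 87, 85 and 3 by DESeq2, fragments, limma and the block. In WT-T against WT-C and for the interaction, against 1, DESeq2 called 114 and 190 and the other settings 0 to 10. With a library left out, counts over all genes ran from 803 to 2256 in R6/2-C against WT-C, 2760 to 4812 in R6/2-T against WT-T, 2 to 1197 in R6/2-T against R6/2-C, 2 to 527 for the shRNA over both genotypes, 1 to 11 in WT-T against WT-C and 0 to 29 for the interaction. Depth limits Bdnf, Ntf3 and Ntf5, which rest on few fragments.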
